A study of Arabidopsis thaliana with 24 samples.

Results

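The transcriptome of wild-type (WT, Col-0) Arabidopsis thaliana after 1 h at 38 °C was compared with that of unheated WT plants. The comparison used the 3 WT heat arrays and the 3 WT control arrays, 6 of the 24 arrays of the study, over all 16552 genes that at least 1 single-gene probe set names. The other 18 arrays held 3 mutants, each in heat and in control, namely the single mutants hd2c-3 and brm-1 and the double mutant brm-1 hd2c-3. HD2C is a plant-specific histone deacetylase and BRM is the ATPase of a SWI/SNF chromatin remodelling complex. All plants were in the Col-0 background, 3 weeks old, and kept in soil under long days (16 h of light, then 8 h of darkness) at 22 to 23 °C and 70% humidity. No transgene is mentioned, and the labels do not name the organ. Control plants were collected before the treatment and heated plants after it, so the effect of heat and that of collection 1 h later in the day cannot be told apart.

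In the heat shock response, unfolding proteins release heat shock transcription factors from repression, and these factors switch on chaperone genes. Small heat shock proteins hold unfolding proteins without using ATP, the HSP70 system with its J-domain and exchange partners refolds them, and HSP90 with its co-chaperones completes the folding of signalling proteins. Chaperonins do similar work inside plastids and mitochondria, and the endoplasmic reticulum has its own folding and disposal system. Plant cells commonly lower growth-related transcripts at the same time.

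The values are log2 intensities of Affymetrix whole-transcript arrays hybridised with biotin-labelled cDNA made from total RNA. All differences below are log2 differences, WT heat minus WT control, each with its moderated standard error (±) and 3 arrays in each group. A call means a p under 0.05 in limma after Benjamini-Hochberg adjustment over all genes. Array medians lay between 3.56 and 3.58 in WT heat and between 3.49 and 3.61 in WT control. The correlation between arrays, across genes, was 0.988 to 0.993 within WT heat, 0.992 to 0.993 within WT control and 0.971 to 0.980 between the groups. Per the series' design text, the replicates sent to arrays were picked for similar levels of some marker genes, which can make the spread between replicates look smaller than it was. Transcripts of HD2C and BRM, of HSP101 and HSP90.1 and of the heat shock factors were not analysed here, so genotypes and heat could not be checked on those transcripts. Of the marker lists, 1 of 11 mesophyll genes could be read: RCA, the activase of the carbon-fixing enzyme, had 11.15, 11.04 and 10.96 in WT heat, against 10.76, 10.76 and 10.63 in WT control (0.33 ± 0.10, adjusted p = 0.0351). Its heat values all lay above its control values, and in 5229 of all 16552 genes the groups did not overlap. Of 6 guard cell lineage markers SPCH (-0.26) and MUTE (-0.25) were measured and did not pass. The root hair genes EXPA7 and EXPA18, 2 of 16 root markers, lay between 1.85 and 2.40 in WT heat and between 1.68 and 2.40 in WT control, below every array median. No marker of flower, seed or phloem was measured here, so whether tissue makeup moved with heat was not tested. In bulk tissue, fewer cells of a type and less RNA per cell cannot be told apart.

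After 1 h of heat, 2198 of the 16552 genes (13.3%) were called. Of these, 960 genes (5.8%) rose and 1238 (7.48%) fell, while the median difference over all genes was 0.01. A change of at least 2-fold was reached by 394 called genes (2.38%), which were 197 rises and 197 falls. The equal totals hid unequal tails. Among the rises, 151 lay between 1 and 2 on the log2 scale, 27 between 2 and 3, 9 between 3 and 5, and 10 above 5. Among the falls, 182 lay between 1 and 2 and 15 between 2 and 3, with none larger. In 53 of the 197 large rises all 3 control values lay under the lowest control array median, and in 43 of the 197 large falls all 3 heat values lay under the lowest heat array median. The files used here hold no background or detection value, so a low value marks no measured floor.

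**Figure D1:**
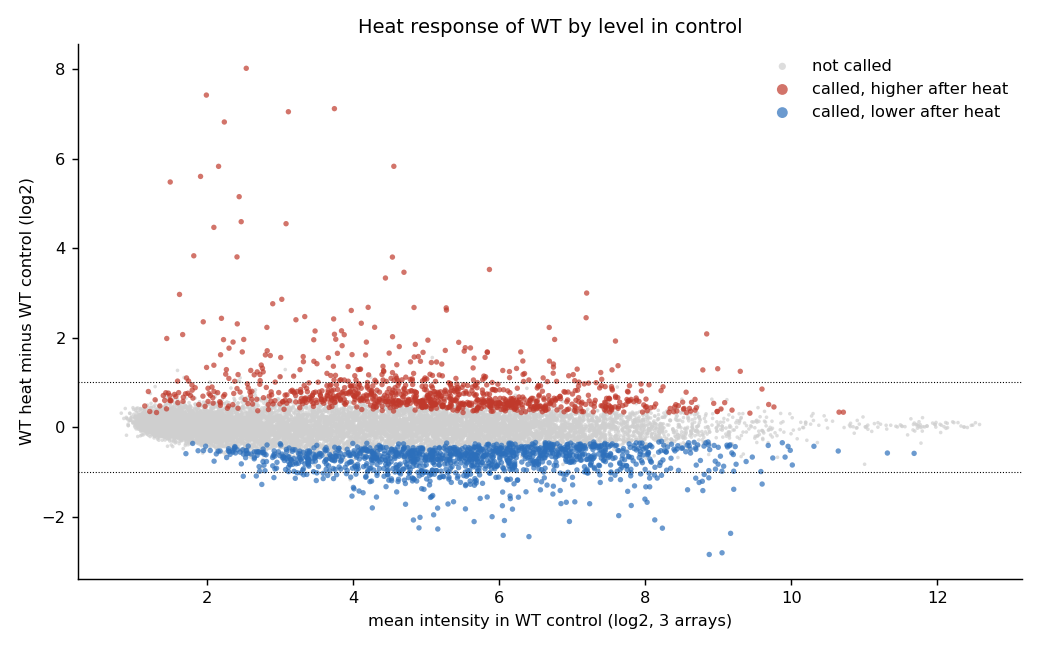
Log2 difference of WT heat minus WT control (vertical axis) against the mean log2 value in WT control (horizontal axis) for all 16552 genes, with the called genes in colour. Rises run up to a log2 difference of 8.03, whereas falls end at -2.85.

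The heat replicates did not show the large changes to the same extent. In the 197 large rises, WT heat replicate 1 held the lowest of the 3 heat values in 128 (65.0%), against 31.3% over all genes. In the 197 large falls the same array held the highest heat value in 103 (52.3%, against 30.7% over all genes), and WT heat replicate 3 the lowest in 110 (55.8%, against 35.3%). The median SD over the 3 arrays was 0.246 in WT heat and 0.164 in WT control for the large rises, and 0.192 in WT heat and 0.153 in WT control for the large falls. What sets replicate 1 apart was not tested. Without it, 1808 genes were called, and without any other 1 of the WT arrays 1549 to 1622.

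The list of small heat shock proteins had the highest median difference of the lists. Of the 11 measured loci of this list, 9 rose, none fell and 2 did not pass, with a median difference of 4.59 (0.01 over all genes). Most of these loci carry no symbol in the gene tables and were placed in the list by locus identifier. AT2G29500 had 10.50, 10.68 and 10.51 in WT heat, against 2.57, 2.56 and 2.49 in WT control, a difference of 8.03 ± 0.12 (adjusted p = 1.38e-22), or 261-fold. Its heat values lay within a narrow band far above all control values. AT1G53540 had 9.45, 9.34 and 9.47 in WT heat, against 1.93, 2.07 and 1.97 in WT control (7.43 ± 0.22, adjusted p = 5.4e-17). AT1G07400 had 9.82, 10.15 and 10.53 in WT heat, against 2.92, 2.84 and 3.59 in WT control (7.05 ± 0.33). ATHSP22.0, whose product is the endoplasmic reticulum member of the family, had 8.80, 9.37 and 9.02 in WT heat, against 2.81, 2.28 and 1.62 in WT control (6.82 ± 0.27). Close relatives of this family share long stretches of sequence, so signal shared between their probe sets was not tested.

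The remaining called members rose by less. AT5G51440 differed by 5.48 ± 0.29 and AT1G52560 by 4.59 ± 0.35. AT5G37670, AT2G19310 and AT1G59860, which were picked for mention after their values were seen, differed by 3.83 ± 0.33, 3.00 ± 0.17 and 2.07 ± 0.49. AT2G19310 stood out by its level before heat, with 7.18, 7.20 and 7.22 in WT control and 9.90, 10.27 and 10.43 in WT heat. The members that did not pass were AT5G47600, with a difference of 0.56, and AT4G21870, with -0.05. A further small heat shock locus by its identifier, AT1G54050, was not on the list and had 6.94, 8.22 and 7.74 in WT heat, against 2.94, 3.07 and 3.24 in WT control (4.55 ± 0.32).

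**Figure D2:**
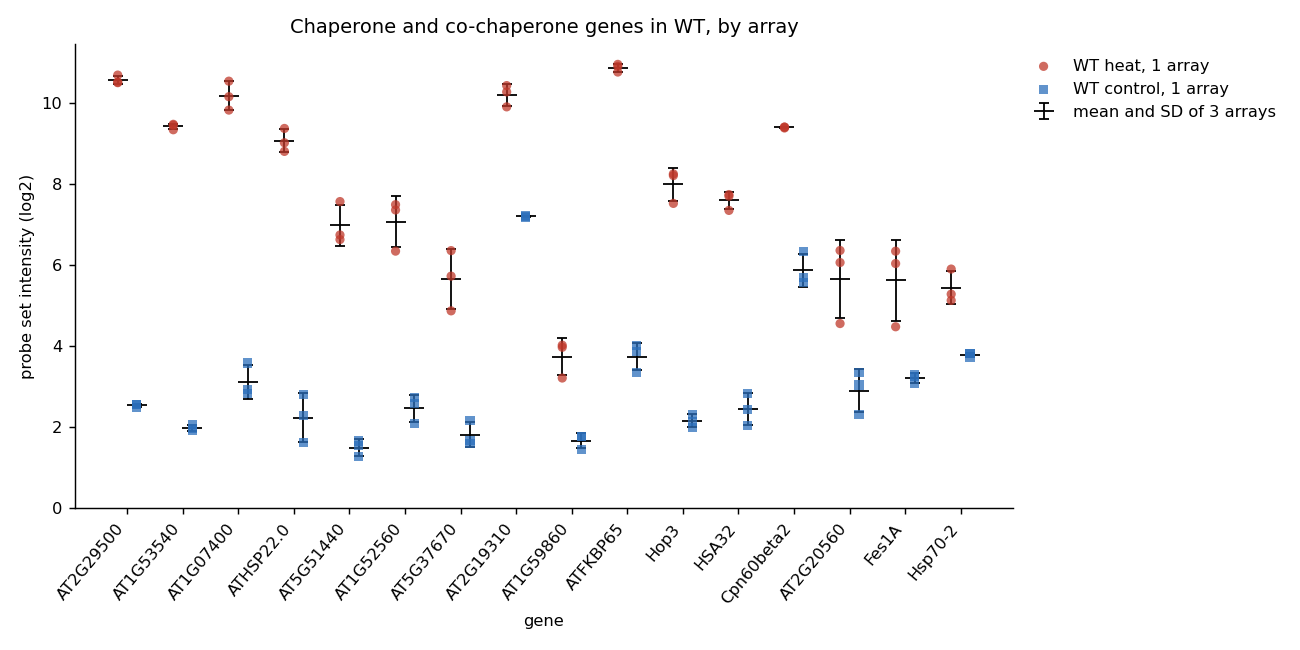
Log2 values of chaperone genes on each of the 3 WT heat arrays and the 3 WT control arrays, 1 point per array, with the mean and SD of each group. In each gene drawn the heat values lie above the control values, by 8.03 on average for AT2G29500. Most genes drawn were chosen among those whose groups did not overlap. For Fes1A and AT2G20560 heat replicate 1 lies well below the other heat arrays.

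HSP70 genes and their exchange factors rose by less. Of 7 measured members 6 rose and none fell, with a median difference of 0.93. Fes1A, an exchange factor that protects cytosolic HSP70 in heat, had 4.48, 6.04 and 6.34 in WT heat, against 3.09, 3.26 and 3.31 in WT control (2.40 ± 0.36, adjusted p = 6.26e-05). Heat replicate 1 was more than 1 log2 unit below the other heat arrays here. It was still above all control arrays, which the choice of this gene required. Hsp70-2 had 5.13, 5.90 and 5.28 in WT heat, against 3.81, 3.73 and 3.82 in WT control (1.65 ± 0.25). AT3G09440, an HSP70 locus by its identifier, had 7.96, 8.58 and 8.46 in WT heat, against 7.46, 7.36 and 7.38 in WT control (0.93 ± 0.18). Fes1B, Fes1C and AT1G11660 rose by 0.51 ± 0.12, 0.51 ± 0.13 and 0.55 ± 0.17. BIP1, the HSP70 of the endoplasmic reticulum, did not pass, with 4.58, 4.09 and 3.75 in WT heat, against 2.84, 3.05 and 3.14 in WT control (1.13 ± 0.41, adjusted p = 0.0753). Its groups did not overlap, which also held for 5229 of all 16552 genes. The calls for Fes1C and AT1G11660 were lost in some of the alternatives tried, and the list's count of rises ranged from 4 to 7.

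HSP90 co-chaperones included 2 of the 10 rises above 5 on the log2 scale. Of 10 measured members 7 rose and none fell, with a median difference of 1.33. ATFKBP65, a peptidyl-prolyl isomerase that binds HSP90, had 10.76, 10.95 and 10.90 in WT heat, against 3.36, 3.87 and 4.01 in WT control (7.12 ± 0.18, adjusted p = 4.21e-18). The Hop proteins, which bridge HSP70 and HSP90, were split. Hop3 had 7.52, 8.25 and 8.21 in WT heat, against 2.15, 2.0 and 2.32 in WT control (5.83 ± 0.22). Hop2 had 7.68, 7.84 and 7.60 in WT heat, against 6.45, 6.56 and 6.80 in WT control (1.1 ± 0.14). Hop1 did not pass, with 5.04, 5.22 and 4.79 in WT heat, against 4.69, 4.71 and 4.96 in WT control (0.23 ± 0.19). The Hop1 groups overlapped. Those of Hop2 and Hop3 were apart, which the choice of called members required.

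The other co-chaperones that passed rose 1.79-fold to 3.85-fold. AT3G12050, placed by its identifier, had 6.53, 7.20 and 7.19 in WT heat, against 5.21, 5.04 and 4.83 in WT control (1.95 ± 0.23). SGT1A, a co-chaperone of immune receptors, had 6.27, 6.62 and 6.33 in WT heat, against 5.06, 4.56 and 4.89 in WT control (1.57 ± 0.18). BOB1, a NudC-domain chaperone needed for development and thermotolerance, had 7.14, 7.53 and 7.44 in WT heat, against 5.36, 5.95 and 6.12 in WT control (1.56 ± 0.19). In all of these the groups were apart, which the choice of called members required. SQN, the cyclophilin 40 of plants and a member picked for mention after its values were seen, rose by 0.84 ± 0.21. AT3G03773 and AT4G02450 did not pass, with differences of 0.07 and 0.14.

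Among 8 chaperonins, Clp proteins and HSA32, 3 rose and none fell, with a median difference of 0.26. HSA32, a protein needed to keep acquired thermotolerance for days, had 7.35, 7.74 and 7.70 in WT heat, against 2.84, 2.43 and 2.05 in WT control (5.15 ± 0.25, adjusted p = 1.38e-12). Cpn60beta2, a subunit of the chloroplast chaperonin, had 9.40, 9.38 and 9.40 in WT heat, against 5.57, 6.33 and 5.70 in WT control (3.53 ± 0.19). Its heat values differed by less than those of its control. Cpn60beta3 rose by 0.52 ± 0.14, a call lost without heat replicate 1, while Cpn60beta4 (-0.15), CLPB2 (-0.32) and HSP93-III, a plastid Clp protein (0.25), did not pass.

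The listed J-domain proteins, which hand clients to HSP70, mostly did not pass. Of 11 measured members 2 rose, beside 5.8% rises over all genes, and none fell, with a median difference of 0.16. J-domain loci outside the list were not counted. AT2G20560 had 4.56, 6.36 and 6.06 in WT heat, against 3.35, 3.04 and 2.31 in WT control (2.76 ± 0.34). ATERDJ3B, the partner of BiP in the endoplasmic reticulum, had 7.67, 7.80 and 7.19 in WT heat, against 6.14, 6.28 and 6.30 in WT control (1.31 ± 0.16). The other 9 members lay between -0.16 and 0.35.

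Genes of folding and disposal in the endoplasmic reticulum rose in part. Of 14 measured members 6 rose and none fell, with a median difference of 0.52. DER1 had 7.72, 8.11 and 8.01 in WT heat, against 6.65, 6.72 and 6.85 in WT control (1.21 ± 0.15). DER2.1 had 8.20, 8.56 and 8.67 in WT heat, against 7.23, 7.40 and 7.59 in WT control (1.07 ± 0.16). Both encode derlins, membrane proteins through which misfolded proteins leave the compartment. OS9, a lectin that picks such proteins, rose by 0.92 ± 0.16, and CRT1b, a calreticulin, by 0.91 ± 0.10. BZIP28, the membrane-bound factor that senses misfolding there, had 5.57, 5.97 and 5.65 in WT heat, against 5.12, 5.13 and 5.31 in WT control (0.54 ± 0.14). Its call was lost without heat replicate 2.

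Outside the chaperones, the largest rises among genes with a symbol were of mixed kinds. FIB, a fibrillin that coats lipid bodies of the plastid, had 10.91, 10.93 and 10.94 in WT heat, against 8.80, 8.73 and 9.01 in WT control (2.08 ± 0.14, adjusted p = 4.84e-10). BGAL16, a beta-galactosidase, had 5.46, 5.74 and 5.99 in WT heat, against 3.63, 3.98 and 3.68 in WT control (1.97 ± 0.16). CYTC-2, a cytochrome c of the mitochondrial electron chain, had 6.03, 6.18 and 6.24 in WT heat, against 4.41, 4.57 and 4.50 in WT control (1.66 ± 0.16). The groups of all 3 genes were apart, which the choice of these genes required. EXLA1, an expansin-like protein, rose by 1.61 ± 0.29 and NVL by 1.55 ± 0.19. SRC2, a C2-domain protein, rose by 1.54 ± 0.28.

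Several large rises belonged to loci without a symbol. AT5G12110 had 10.15, 10.37 and 10.65 in WT heat, against 4.65, 4.48 and 4.55 in WT control (5.83 ± 0.21). AT1G72660 had 7.13, 7.83 and 7.60 in WT heat, against 2.01, 1.79 and 1.94 in WT control (5.61 ± 0.27). AT5G25450 had 6.02, 6.77 and 6.90 in WT heat, against 2.03, 2.09 and 2.16 in WT control (4.47 ± 0.30). In all 3, every heat value lay more than 3 log2 units above every control value. AT1G71000, picked after its values were seen, rose by 3.81 ± 0.43 with heat values of 5.11, 7.17 and 6.37. Only 29 of the 197 large rises and 39 of the 197 large falls have a symbol or alias in the tables.

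Anthocyanin and flavonoid synthesis, the branch that makes red and purple pigments, fell. Of 8 measured genes 5 fell and none rose, with a median difference of -0.58. UF3GT, an anthocyanin glycosyltransferase, had 3.68, 3.58 and 4.63 in WT heat, against 6.10, 6.42 and 6.71 in WT control (-2.45 ± 0.39, adjusted p = 0.000145). DFR, the reductase at the entry to anthocyanins, had 6.32, 6.98 and 7.08 in WT heat, against 9.08, 9.10 and 9.34 in WT control (-2.38 ± 0.39). AT5MAT, which adds malonate to anthocyanins, had 2.50, 2.78 and 2.97 in WT heat, against 4.59, 4.68 and 5.20 in WT control (-2.08 ± 0.30). In each the highest heat value lay over 1 log2 unit below the lowest control value. CHIL, a helper of flavonoid synthesis, fell by 0.68 and UGT78D1, a flavonol rhamnosyltransferase, fell by 0.46, but both calls were lost in some alternatives. BAN (0.28), UGT78D3 (0.36) and UGT78D2 (-0.48) did not pass. In the wider phenylpropanoid list, which feeds lignin as well, 1 of 15 genes rose and 2 fell, with a median of 0.01, equal to that of all genes.

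Cold-response and dehydrin genes also moved down. Of 13 measured genes 7 fell and 1 rose, with a median difference of -0.56. COR15B, which protects chloroplast membranes in freezing, had 7.99, 7.82 and 7.67 in WT heat, against 9.25, 9.14 and 9.25 in WT control (-1.39 ± 0.15, adjusted p = 7.34e-07). Its close neighbour COR15A had 11.02, 11.10 and 11.17 in WT heat, against 11.68, 11.70 and 11.66 in WT control (-0.59 ± 0.12). LTI30, a dehydrin, had 1.35, 1.58 and 1.48 in WT heat, against 2.66, 2.26 and 3.33 in WT control (-1.28 ± 0.30), a call lost without control replicate 3. COR27, a cold-induced regulator of the clock, had 8.07, 8.22 and 7.78 in WT heat, against 8.93, 8.90 and 9.06 in WT control (-0.94 ± 0.16). AtHIRD11, a dehydrin, fell by 0.82. KIN1 was the exception, with 3.2, 4.03 and 3.57 in WT heat, against 2.23, 2.62 and 2.42 in WT control (1.18 ± 0.23). KIN1 has a near-identical neighbour, so signal shared between their probe sets was not tested. None of 7 late embryogenesis and seed genes was called in limma, and 0 had an unadjusted p under 0.05.

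Starch and sucrose genes fell in several steps. Of 10 measured genes 6 fell and none rose, with a median difference of -0.48. ATSPS4F, a sucrose phosphate synthase, had 6.44, 6.23 and 5.51 in WT heat, against 8.34, 8.31 and 7.75 in WT control (-2.08 ± 0.21, adjusted p = 3.35e-07). APL3, a large subunit of the first enzyme of starch synthesis, had 4.96, 5.04 and 4.93 in WT heat, against 5.92, 5.68 and 5.70 in WT control (-0.79 ± 0.14). APL4, a sister subunit, fell by 0.84, and F2KP, which sets the level of a regulatory sugar phosphate, fell by 0.47. The loci AT5G26570 and AT4G24450, which share the symbol PWD, fell by 0.49 and 0.61. The count of falls in this list ranged from 3 to 6 over the alternatives.

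Among 18 sugar transporters and invertases the directions were mixed, with 3 falls, 2 rises and a median of -0.03. Over all genes 5.8% rose and 7.48% fell. SWEET4, a sugar exporter of the plasma membrane, had 4.61, 4.45 and 4.61 in WT heat, against 6.13, 6.06 and 6.28 in WT control (-1.60 ± 0.14). TMT1, which loads sugar into the vacuole, had 7.88, 7.74 and 7.63 in WT heat, against 8.84, 8.81 and 8.78 in WT control (-1.06 ± 0.13). TMT2 fell by 0.55. SWEET16, a sugar carrier of the vacuole membrane, had 5.82, 5.87 and 5.87 in WT heat, against 4.54, 4.92 and 4.98 in WT control (1.04 ± 0.16). In the tricarboxylic acid cycle and citrate list 3 of 15 genes fell, beside 7.48% falls over all genes, and none rose. IDH-VI, an isocitrate dehydrogenase, fell by 1.12 and SDH1-1, a succinate dehydrogenase subunit, fell by 0.68.

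**Figure D3:**
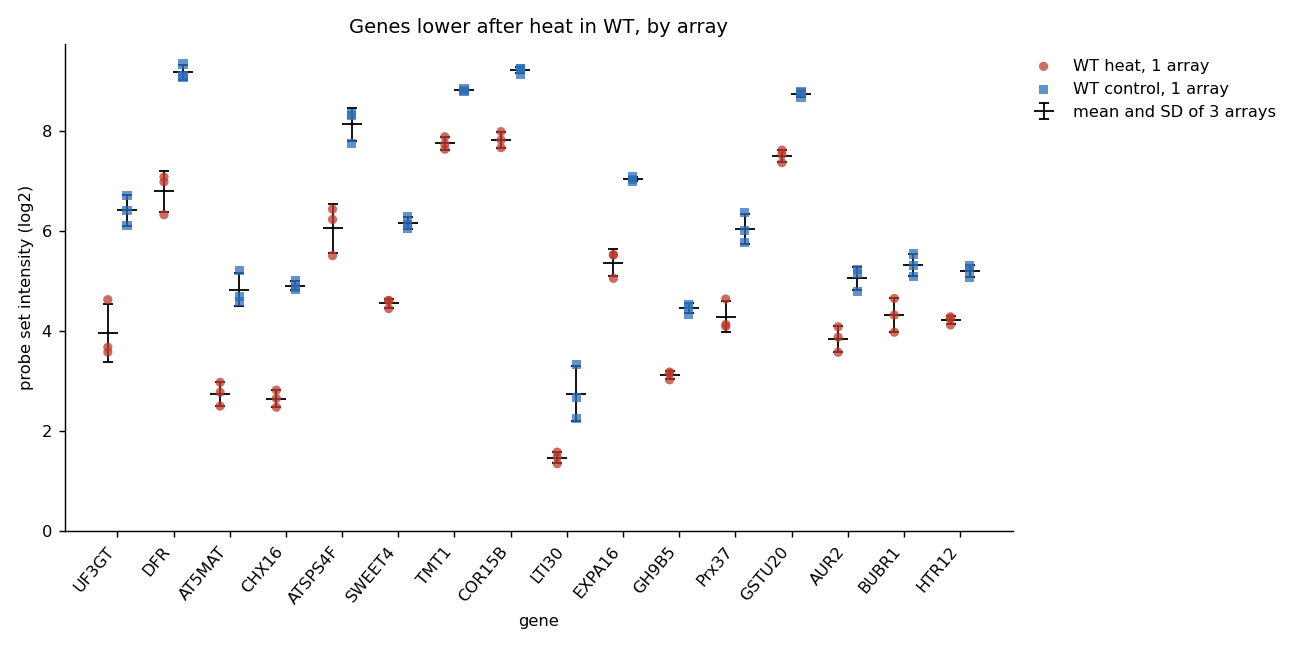
Log2 values of genes that fell on each of the 3 WT heat arrays and the 3 WT control arrays, 1 point per array, with the mean and SD of each group. In each gene drawn all heat values lie below all control values, by 2.45 on average for UF3GT. The choice of these genes required groups without overlap.

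Many genes of mitosis and the cell cycle fell. Of 24 measured genes 14 fell and 2 rose, with a median difference of -0.55. AUR2, an Aurora kinase of the spindle and division plane, had 3.88, 4.09 and 3.58 in WT heat, against 5.23, 4.79 and 5.14 in WT control (-1.21 ± 0.16, adjusted p = 1.56e-05). AUR1, its close relative, had 4.12, 3.92 and 3.84 in WT heat, against 4.81, 4.86 and 5.15 in WT control (-0.98 ± 0.21). BUBR1, of the spindle checkpoint family, had 4.65, 4.32 and 3.98 in WT heat, against 5.09, 5.31 and 5.54 in WT control (-1.0 ± 0.21). In these 3 genes no heat value reached a control value, which the choice of called members required. Haspin, a histone H3 kinase of mitosis, fell by 0.82, and POLA3, the primase subunit that starts DNA synthesis, fell by 0.75. KINESIN-12B, a motor of the division plane, and PRL, an MCM helicase subunit of DNA replication, were picked after their values were seen and fell by 0.70 and 0.86. SKP2A, an F-box protein that removes cell cycle regulators, rose by 0.72 ± 0.19, a call lost in 2 alternatives. The count of falls ranged from 10 to 15 over the alternatives.

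Histones and chromatin factors changed in single members. Of 8 histone genes 2 fell. HTR12, the centromeric histone H3, had 4.26, 4.12 and 4.28 in WT heat, against 5.24, 5.30 and 5.07 in WT control (-0.98 ± 0.19). HIS1-3, a linker histone known from drought, fell by 0.82, a call lost in 5 alternatives, and the 4 HTB genes for histone H2B did not pass. Of 20 chromatin factors 2 fell and 1 rose, near the share over all genes (13.3% called, 7.48% falls). CHR18 and CHR24, ATPases of the SNF2 family, had differences of -1.01 ± 0.17 and -0.97 ± 0.17. HDA15, a histone deacetylase, rose by 0.37 ± 0.11, a call lost in 8 alternatives.

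Cell wall lists held mixed counts. Of 34 expansins and xyloglucan endotransglucosylases, which loosen and rejoin the wall, 3 fell and 1 rose, a share of falls near the 7.48% of all genes. EXPA16 had 5.05, 5.52 and 5.52 in WT heat, against 7.09, 7.0 and 7.02 in WT control (-1.67 ± 0.21). GH9B5, a member of the endoglucanase family, had 3.18, 3.03 and 3.15 in WT heat, against 4.53, 4.34 and 4.49 in WT control (-1.33 ± 0.17). It was 1 of 2 falls among 19 such genes, again near the share over all genes. Of 9 cellulose synthase-like genes 3 fell. CSLC5 had 6.42, 6.39 and 6.33 in WT heat, against 7.28, 7.35 and 7.28 in WT control (-0.93 ± 0.14), and CSLC04 fell by 0.92. Both make the glucan backbone of xyloglucan. Among 24 TRICHOME BIREFRINGENCE-LIKE genes, a family that acetylates wall sugars, 3 fell, and none of 9 pectin genes was called in limma or had an unadjusted p under 0.05. In the wax and cutin list 2 of 6 genes fell, namely CER26, which helps make long wax chains (fell by 0.92), and DEWAX, a repressor of wax genes (fell by 0.92), whose call was lost in 3 alternatives.

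Lists of secondary metabolism and detoxification were mixed as well, beside 5.8% rises and 7.48% falls over all genes. Serine carboxypeptidase-like genes gave 6 falls and 2 rises among 32, with scpl20 falling by 1.67. Beta-glucosidases gave 6 falls and 2 rises among 23, and UDP-glycosyltransferases 7 falls and 5 rises among 52. Without heat replicate 1 the falls came to 3 among the UDP-glycosyltransferases and to 4 among the beta-glucosidases. Of 15 glutathione transferases 2 fell and 1 rose. GSTU20 had 7.52, 7.62 and 7.36 in WT heat, against 8.67, 8.78 and 8.77 in WT control (-1.24 ± 0.14). GSTU26 had 3.67, 3.94 and 3.39 in WT heat, against 4.87, 4.80 and 4.95 in WT control (-1.21 ± 0.15). Of 8 class III peroxidases, which act in the cell wall, 3 fell. Prx37 had 4.64, 4.13 and 4.09 in WT heat, against 5.77, 6.0 and 6.36 in WT control (-1.76 ± 0.37). In the 27 listed cytochrome P450 genes there was 1 rise and 1 fall, a lower share than the 13.3% of all genes. Neither call held without heat replicate 1.

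Other large falls with a symbol came from different lists or from none. CHX16, a cation/H+ exchanger, had 2.82, 2.48 and 2.65 in WT heat, against 5.0, 4.83 and 4.88 in WT control (-2.25 ± 0.22, adjusted p = 2.8e-07). ACA.l, annotated as an autoinhibited Ca2+/ATPase, had 6.12, 5.69 and 5.17 in WT heat, against 7.63, 7.58 and 7.71 in WT control (-1.98 ± 0.26). PRA1.B6, of a family that acts in vesicle traffic, fell by 1.29. In both CHX16 and ACA.l the heat arrays lay well below the control arrays. AtNPF6.2, a nitrate transporter of the petiole, went the other way, with 9.95, 10.13 and 10.12 in WT heat, against 8.63, 8.95 and 8.80 in WT control (1.28 ± 0.14). AtNPF3.1 fell by 0.89. In all, 2 of 14 NPF transporters rose and 2 fell, and of 9 CHX exchangers 1 rose and 1 fell. Over all genes 5.8% rose and 7.48% fell. The CHX rise, CHX21, was a call lost in 9 alternatives. FAMT, a methyltransferase of farnesoic acid, fell by 1.42.

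The 2 largest falls belonged to loci without a symbol. AT5G59670 had 6.01, 6.14 and 5.93 in WT heat, against 9.11, 9.04 and 8.49 in WT control (-2.85 ± 0.18, adjusted p = 1.6e-10). AT4G30650 had 6.45, 6.20 and 6.08 in WT heat, against 9.05, 9.0 and 9.11 in WT control (-2.81 ± 0.18). In linear terms the WT control level was 7.2-fold and 7.01-fold that in WT heat. AT1G19960 fell by 2.42, AT1G56120 by 2.28 and AT3G28220 by 2.26.

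Lists of transcription factors differed in how many members were called, and family members without a symbol can be missing from them. Of 27 bZIP factors 4 rose and 2 fell, with a median of 0.21 and 20 differences above 0 (median 0.01 over all genes). FD, the partner of the flowering signal at the shoot apex, had 5.79, 5.68 and 5.69 in WT heat, against 6.89, 7.02 and 6.76 in WT control (-1.17 ± 0.15). bZIP58 had 5.21, 5.79 and 5.99 in WT heat, against 4.03, 4.41 and 4.82 in WT control (1.24 ± 0.32), a call lost in 2 alternatives. Of 66 MADS box factors 3 rose and 1 fell, a lower share than the 13.3% of all genes, and each of the 4 calls was lost in at least 3 alternatives. Of 24 bHLH factors 2 rose and 1 fell, and the fall, bHLH115, was lost in 7 alternatives. Of 14 AP2/ERF factors 2 fell, and both calls were lost in some alternatives. ORA47, a regulator of jasmonate synthesis, did not pass, with 4.72, 4.66 and 3.70 in WT heat, against 2.88, 3.79 and 2.55 in WT control (1.29 ± 0.46, adjusted p = 0.0675). Its groups overlapped. Among 16 leaf-patterning factors YAB5 alone was called, with 5.78, 5.40 and 5.52 in WT heat, against 6.43, 6.47 and 6.52 in WT control (-0.91 ± 0.12). Of 11 clock and light genes 2 fell and 1 rose, the rise being XCT (0.73 ± 0.15).

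Most hormone and defence lists had few calls, while the WRKY and calmodulin-binding lists held larger shares of falls than the 7.48% of all genes. Of 27 auxin genes 1 was called, IAA29, which fell by 0.77, a call lost in 4 alternatives. None of 8 cytokinin, 6 gibberellin or 9 jasmonate genes was called in limma, which called 13.3% of all genes at the same threshold, and 1, 1 and 3 of them had an unadjusted p under 0.05. None of 13 immune receptors and partners and none of 63 LCR defensin-like genes was called, with 1 and 3 at an unadjusted p under 0.05, and 1 of 8 plant defensins rose (PDF1.4, 1.17 ± 0.32, a call lost without heat replicate 2, heat replicate 3 or control replicate 1). Of 7 WRKY factors, with a median of -0.43, 2 fell, WRKY6 by 0.58 and WRKY20 by 0.43, and both calls were lost in some alternatives. Of 19 calcium sensors and channels 1 rose, CML23, a call lost in 5 alternatives. Calmodulin-binding IQD proteins, which link calcium signals to microtubules, gave 6 falls and no rise among 17, with a median of -0.26. IQD29 and IQD23 fell by 0.94 and 0.86. In signalling outside these lists, AP2C1, a phosphatase of MAP kinases, rose by 1.40 ± 0.33 and AKINBETA1, a subunit of the energy-sensing SnRK1 kinase, by 1.02 ± 0.15. ALDH7B4, an aldehyde dehydrogenase induced by stress, rose by 0.96 ± 0.13. These 3 genes were picked after their values were seen.

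Nuclear photosynthesis genes that were called all rose, by less than 2-fold. Of 35 measured genes 7 rose and none fell, beside 5.8% rises over all genes, with a median of 0.10 and 24 differences above 0. LHCB4.2, a minor antenna protein of photosystem II, had 8.11, 8.23 and 8.12 in WT heat, against 7.58, 7.56 and 7.38 in WT control (0.65 ± 0.13). LPA19, which helps assemble photosystem II, rose by 0.67 ± 0.14, and PGRL1B, of cyclic electron flow, by 0.62 ± 0.12. Without heat replicate 1 the rises in this list came to 4, and over the alternatives they ranged from 3 to 11. Of 63 plastid-encoded genes 3 rose and none fell, with a median of 0.05. The plastid genes were rps16, rpl33 and rps15, all for ribosomal proteins, and each call was lost in at least 1 alternative.

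RNA handling and protein turnover gave scattered calls, beside 5.8% rises and 7.48% falls over all genes. Of 35 splicing and RNA handling genes 6 rose and 2 fell. The splicing factors ATU2AF65A and ATU2AF35A, which mark the end of an intron, rose by 0.70 ± 0.11 and 0.60 ± 0.11. ATU2AF65A had 7.32, 7.47 and 7.36 in WT heat, against 6.73, 6.49 and 6.82 in WT control. Of 12 ribosome biogenesis genes 3 rose and of 17 RNA polymerase subunits 2 rose and 1 fell. Over the alternatives the ribosome biogenesis rises ranged from 1 to 3. The calls of the polymerase subunits NRPD7 and NRPB3 were lost in 4 and 7 alternatives. Of 12 ubiquitin-specific proteases 1 fell, UBP21, with 4.52, 4.51 and 4.51 in WT heat, against 5.69, 5.65 and 5.66 in WT control (-1.15 ± 0.21). Of 10 U-box ubiquitin ligases 2 fell, PUB24 by 0.95 and PUB39 by 0.60. Of 11 autophagy genes 2 rose, ATG8H by 0.56 ± 0.16 and ATG8B by 0.53 ± 0.14, and 10 of the 11 differences lay above 0. Both calls were lost in 4 alternatives. In 28 exocyst and vesicle sorting genes there were 3 falls and 2 rises.

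**Figure D4:**
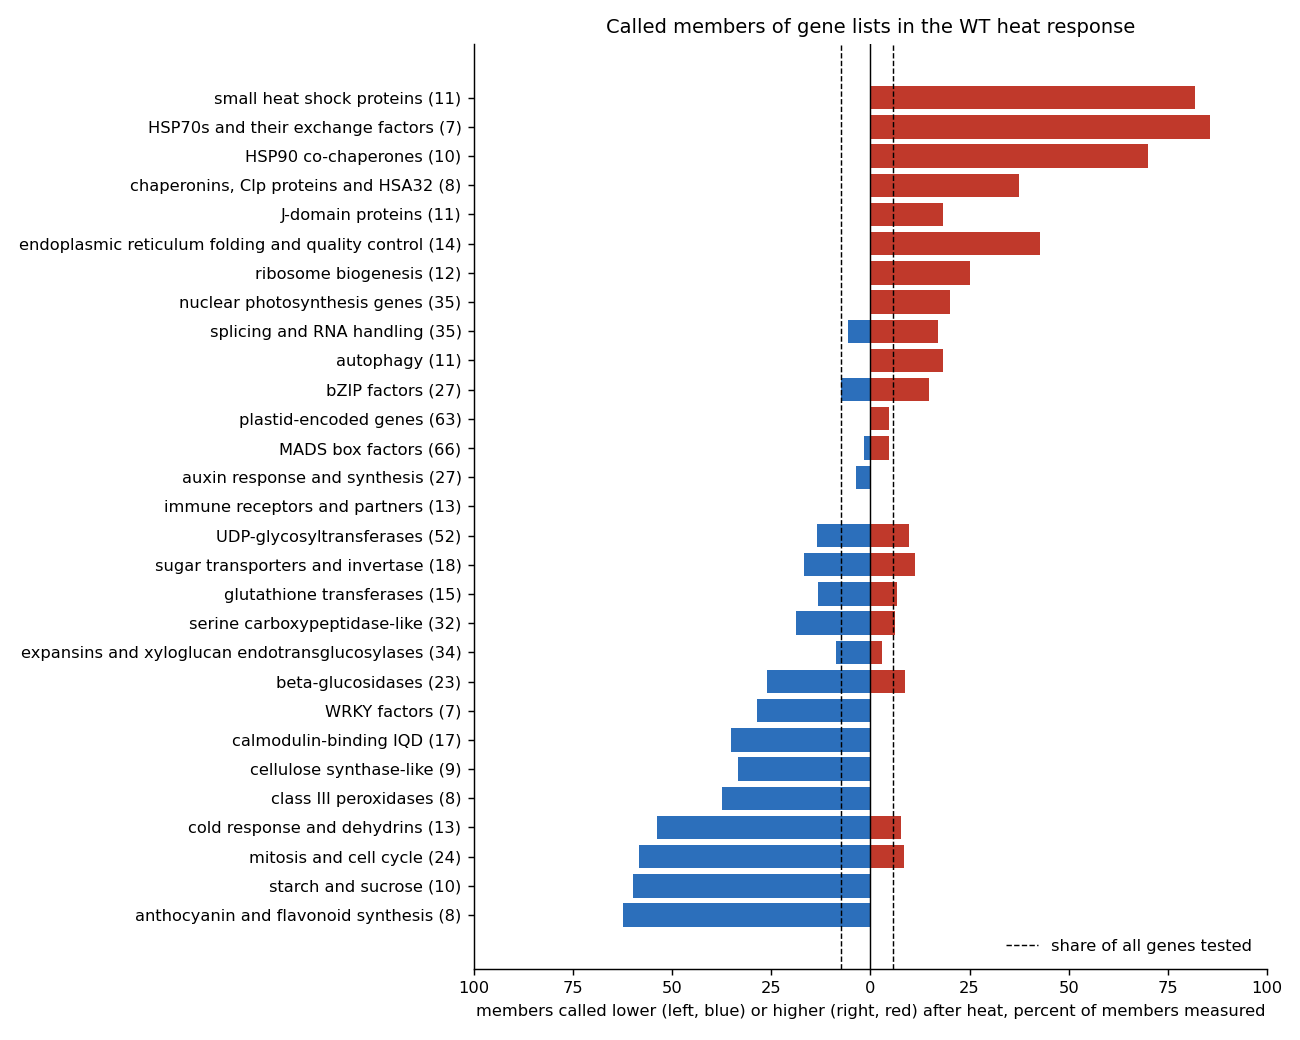
Share of the measured genes of each list, in percent, called higher (right of 0) and called lower (left of 0) in WT heat against WT control, with the number of measured genes in parentheses and the share over all genes as dashed lines. The chaperone lists hold rises and no fall, and mitosis, starch, anthocyanin and cold lists hold mostly falls.

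The heat response of WT was then set against that of the mutants, as the WT difference minus the mean of the 3 mutant differences. At an adjusted p under 0.05, 47 of the 16552 genes (0.284%) differed. In 42 of them (0.254%) the WT value was the lower, and in 5 (0.0302%) the higher. In all 42 each of the 3 mutant differences lay above that of WT. The choice of genes by the mean of those mutants, against the same WT arrays, favours this, so it is no separate support. Of the 42, 24 rose in WT, 7 fell in WT and 11 did not pass there. These counts rest on single WT arrays. Without WT heat replicate 1 no gene was called in limma (1129 genes had an unadjusted p under 0.05, against 1313 with all arrays), and without replicate 3 of heat 2 genes were. Without control replicate 1, 2 or 3 the counts were 5, 4 and 2, and without heat replicate 2 the count was 46.

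Several of the 47 are chaperone genes that rose in WT and rose more in the mutants. AT1G54050 rose by 4.55 ± 0.32 in WT, and by 6.14 in hd2c-3, 6.57 in brm-1 and 6.31 in brm-1 hd2c-3, which put WT at -1.79 ± 0.37 relative to the mean of the mutants (adjusted p = 0.0425). Leaving out WT heat replicate 1 gave -1.44 for it (adjusted p = 0.233). AT3G12050 had a difference of 1.95 in WT, against 3.03, 3.24 and 3.2 in the mutants in the same order (-1.21 ± 0.26). BOB1 had 1.56 in WT, against 2.46, 2.66 and 2.80 (-1.08 ± 0.22). AT3G09440 had 0.93 in WT, against 2.15, 2.0 and 1.81 (-1.06 ± 0.21). For each of these the mutants lay close together and WT below them. For Hop2 and the derlin DER1 the WT value minus the mean of the mutants was -0.79 ± 0.16 and -0.89 ± 0.17. Fes1A had 2.40 in WT, against 4.29, 4.22 and 4.31 in the mutants, and did not pass (-1.87, adjusted p = 0.0551).

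In the small heat shock list no difference was called, although the median was 4.59 in WT, against 6.92 in hd2c-3, 5.98 in brm-1 and 6.36 in brm-1 hd2c-3. These medians fall on different loci, and the median over loci of WT minus the mean of the mutants was -0.71. The median HSP90 co-chaperone difference was 1.33 in WT, against 2.08, 2.29 and 2.15 in the same mutants, with a median of -0.75 for WT minus the mean of the mutants, and 3 of its 10 genes were called. Over all genes the medians were 0.01 in WT, against 0.05, 0.01 and 0.00. Heat replicate 1, the lowest WT heat array in 65.0% of the large rises, enters each of these WT values.

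Other genes among the 47 were not shared by all mutants to the same degree. ABR1, an AP2/ERF factor that represses responses to abscisic acid, had 3.82, 4.87 and 4.45 in WT heat, against 4.80, 5.42 and 5.82 in WT control (-0.97 ± 0.35, adjusted p = 0.0767). Its mutant differences were 1.21 in hd2c-3, -0.31 in brm-1 and 2.28 in brm-1 hd2c-3. AT4G33930 differed by 1.01 in WT, against 2.31, 1.87 and 4.74 in those mutants. COR47, a dehydrin picked after its values were seen, differed by -0.13 in WT, against 0.77, 0.02 and 2.46. In these 3 genes the brm-1 hd2c-3 difference was the highest and that of brm-1 the lowest of the mutants. The genes with the higher WT value were AT4G18570, AT3G13560, AT5G16250, AT4G03100 and AT1G54820, with WT between 0.63 and 0.84 above the mean of the mutants. Of these AT3G13560 was also called in WT, with 6.07, 5.82 and 6.21 in WT heat, against 6.47, 6.65 and 6.51 in WT control.

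**Figure D5:**
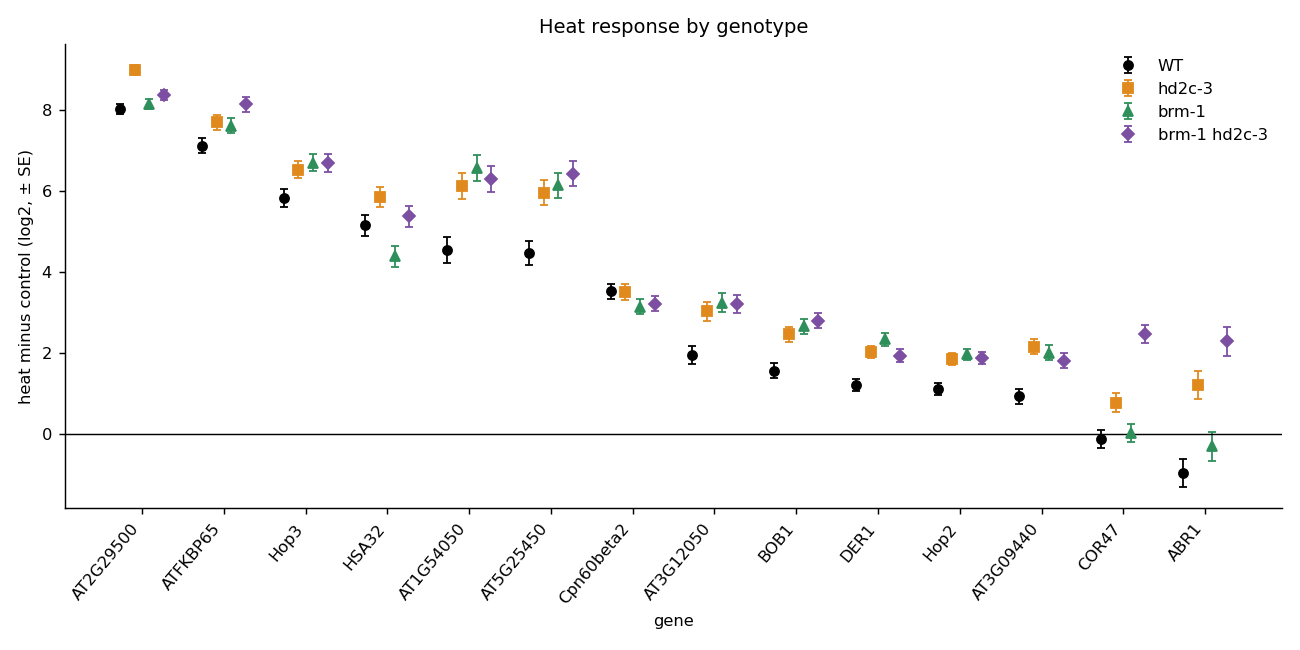
Log2 difference of heat minus control in WT, the single mutants hd2c-3 and brm-1 and their double mutant for named genes, with the moderated SE of each. WT lies below the 3 mutants in AT1G54050, BOB1 and AT3G09440, while the calls of these differences are lost without WT heat replicate 1. Over all genes, 2 to 5 differences are called without WT heat replicate 3 or any 1 WT control array.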

How the data were processed

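The deposited values are log2 intensities, 1 per probe set and array, made with RMA and Partek (no versions or settings given) per the submitters' processing notes. RMA compresses the differences of dim probe sets. The depth of an array is not a count, so the number of arrays limits precision. The platform's gene table gave 1 gene for 16746 of 38408 probe sets, and a gene with several was read on the brightest one, by its mean on all arrays. RefSeq names (TAIR10.1) were found for 16512 of the 16552 genes, and 40 kept the name on the array. All 24 arrays were fitted in limma 3.58.1 (R 4.3.3) with 1 mean for each of 8 groups (16 residual and 6.25 prior degrees of freedom), two-sided. Each SE pools a gene's spread over all groups. The fit was tested on simulated data. Tables and plots used Python 3.11.15, pandas 2.3.3 and matplotlib 3.10.9.

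The genes and lists were chosen with earlier results of these data known. Lists were filled by symbol or alias, or by locus identifier, and 1941 of the 16552 genes carry a symbol or alias. Members of a family without one can be missing, so counts describe the listed genes and not whole families. Named were the 15 largest called rises and 15 largest called falls with a symbol whose heat and control values did not overlap. The 5 largest called rises and 5 largest called falls without a symbol were named whatever their overlap. Also named were up to 6 called members of each list, again without overlap, and members not called of short lists. Factors that changed at least 2-fold and the extremes of the difference from the mutants were named too. Lack of overlap in called genes was thus mostly a condition of choice and no separate support. Genes outside this rule are marked. FIB had been misplaced among ribosome biogenesis genes and was taken out after its value was seen. Replicates carry no label of shared origin, so p-values measure the spread between these plants' arrays. Promoter motifs were not analysed here.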

Additional observations from a re-analysis of the deposited data

Results flagged for a closer look

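Probe sets without a gene name or with several were outside all comparisons above. In a fit over the whole array, 2235 of these 21662 probe sets (10.3%) were called between WT heat and WT control, 970 higher and 1265 lower, beside 1983 of the 16746 single-gene probe sets (11.8%).

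The test of the WT heat response against the mean of the 3 mutant responses called 47 genes, which is why they and the following values are listed. The values are log2 differences, WT minus the mean of the mutants. The lowest were ABR1 at -2.03, AT4G33930 at -1.97, AT2G42150 at -1.80, AT1G54050 at -1.79 and AT5G25450 at -1.71. Of the other genes with a symbol or on a list, UGT73C1 had -1.64, COR47 -1.22, AT3G12050 -1.21, BOB1 -1.08, AT3G09440 -1.06, ARL -1.02, TET2 -0.92, DER1 -0.89 and Hop2 -0.79. The genes with the higher WT value were AT4G18570 at 0.63, AT3G13560 at 0.65, AT5G16250 at 0.72, AT4G03100 at 0.81 and AT1G54820 at 0.84. AT2G42150 had 2.58, 2.68 and 2.41 in WT heat, against 2.23, 2.30 and 2.49 in WT control, so its groups overlapped, and it differed by 2.27 in hd2c-3, 0.72 in brm-1 and 3.05 in brm-1 hd2c-3. Without WT heat replicate 1 the values of these genes ranged from -1.85 to 0.83 and none was called. What sets that array apart was not tested. Leaving out WT heat replicate 3 or any 1 WT control array instead gave 2 to 5 called genes.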

How the results depend on the processing

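The WT heat response called 2198 genes. Over the alternatives on the same genes it called 1549 to 1808 with 1 WT array left out, 3075 with array weights, and 4218 when all probe sets of the table were tested, where 38408 features entered. Setting array medians equal gave 39.2% of calls as rises, against 43.7%. Of 207 named genes that were called, 124 kept the call wherever they were tested and 83 lost it at least once, and none changed sign. Among called genes with several probe sets, 19 of 27 had all of them in 1 direction and 8 had them in both. All probe sets were called in 6 of the 27.

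The difference from the mutants was less stable. It called 47 genes, and with single WT arrays left out 0 to 46. It called 83 after cyclic loess, 72 after quantile normalization, 73 with an intensity trend, 6 without moderation, 105 with array weights, 27 over all probe sets and 100 after dim probe sets were left out (6698 genes tested). Against a single mutant it called 0 genes for hd2c-3 (1105 at an unadjusted p under 0.05), 31 for brm-1 and 243 for brm-1 hd2c-3. The causes were not tested.

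Replicate numbers are shared between groups in the labels, but deviations of same-numbered WT arrays correlated at -0.10, -0.05 and -0.18, so the numbers were not taken to pair samples. With the replicate block the heat response called 2316 genes over all arrays and 1510 in the 6 WT arrays alone, and the difference 56.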

Other observations

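Some peptide and surface families were not described above, and 13.3% of all genes were called. Among 17 CLE peptides 1 fell (CLE43), a call lost in 4 alternatives. None of 18 RALF-like peptides and none of 5 jacalin lectins was called in limma, with 1 of each at an unadjusted p under 0.05. Among 12 tetraspanins, membrane proteins that build signalling platforms, TET8 and TET2 rose by 0.59 ± 0.16 and 0.57 ± 0.17, and 0 were called without WT heat replicate 1. Of 21 redox enzymes 1 fell, MSRB8, which repairs oxidised methionine, with 1.59, 1.25 and 1.35 in WT heat, against 2.38, 2.57 and 2.54 in WT control (-1.10 ± 0.25).

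Neighbouring genes were also read side by side. Of 8309 pairs of neighbours in the RefSeq gene order with both genes tested, both were called in 164 (1.97%). In 100 of these pairs the directions were the same and in 64 opposite. Of all single genes 13.3% were called, and 43.7% of those calls were rises. Whether the pair counts exceed what unrelated genes would give was not tested. Both genes changed at least 2-fold in 13 pairs. AT5G59670, the largest fall (-2.85), stands beside AT5G59680 (-1.15), and the peroxidase Prx37 (-1.76) beside AT4G08780 (-1.35). AT1G66500 (2.23) stands beside AT1G66510 (1.14), and AT2G41150 (1.90) beside AT2G41160 (1.72). In AT3G57450 (1.05) and AT3G57460 (-1.83) the directions were opposite. Probes that read both genes of a pair were not looked for.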
